A study of Arabidopsis thaliana with 24 samples.

Results

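NAC proteins are plant transcription factors that share a conserved DNA-binding domain at the start of the protein. The members described here were the genes of the deposited expression table whose description names a NAC domain or a NAC factor, or whose gene name is NAC or ANAC with a number. This gave 87 of the 24503 genes in the table, 64 by description and 23 by name alone. NAC072 (RD26, AT4G27410), a known marker of the family, is listed under the name RD26 and does not match that wording, so it is reported beside the 87 and not counted among them. CPM here is the reads of a gene relative to the total of its library. A mean over all libraries of at least 10 CPM was reached by 15 members, 24 lay between 1 and 10 CPM, and 48 were below 1 CPM. Of the 87, 63 passed the filter on low values and were tested, and the other 24 had between 2 and 111 reads over all libraries. The untested members included NAC030, a driver of vessel formation, with 111 reads in total, the membrane-tethered NTL8 with 103 and NAC004 with 106.

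RNA sequencing was done on whole rosettes of Arabidopsis thaliana at 3 weeks of age. The wild type Col-0 was set against jaz4-1, a single T-DNA insertion line (SALK_141628C) in the Col-0 background, in which the insertion lies in JAZ4, a repressor of jasmonate signalling. Plants of both lines grew in soil under a photoperiod of 12 h and received no other treatment, and rosettes were cut at dawn (zeitgeber time 0 h, ZT0) and then every 6 h up to ZT18. Each line and time had 3 libraries, each from a pool of 6 rosettes, which gave 24 libraries. The question asked of the NAC genes was which of them differ between the lines, at which time of day, and how they change over the day.

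NAC factors bind short DNA elements as dimers, and different branches of the family act in different processes. One branch responds to drought, salt, wounding and the hormones abscisic acid and jasmonate. Others drive leaf senescence, set organ boundaries in the meristem, or switch on secondary wall formation in vessels and fibres, and some are held in membranes until a stress signal frees them. In leaves the family is best known for control of senescence and of stress responses.

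Libraries held between 16832200 and 22644700 reads on genes (median 20068900), and between 18959 and 21863 genes were detected. Replicate 2 of Col-0 at ZT0 and replicate 2 of jaz4-1 at ZT6 had the lowest numbers of detected genes. JAZ4 itself had 93 reads over all Col-0 libraries (0 to 23 per library) and 31 over all jaz4-1 libraries (0 to 8 per library). The summed level of 4 leaf markers lay between 40090 and 93110 CPM. Of the 4 root markers in the table, PYK10 made up nearly all of a sum of 49.9 to 448 CPM, while IRT1, COBL9 and CASP1 were at or near 0, and the 4 floral organ markers summed to at most 1.76 CPM. Reads come from whole rosettes, so fewer cells of a type and less RNA per cell cannot be told apart.

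Some libraries were the highest of their time for many NAC genes, 1 of them for over 50% of the tested members. At ZT12, jaz4-1 replicate 3 was the highest of the 6 libraries for 34 of the 63 tested members (54.0%), against 24.7% of all tested genes. At ZT0 jaz4-1 replicate 1 was the highest for 19 members (30.2% against 10.2% of all genes), and at ZT18 Col-0 replicate 3 for 19 (30.2% against 18.2%). Also at ZT18, jaz4-1 replicate 2 was the highest for 18 members (28.6% against 17.6% of all genes). The ZT12 library was the highest for 7 of the 7 stress and abscisic acid NACs. Genes of jasmonate and salicylate responses were also highest there, with 10096 normalised reads of VSP1 against 44.8 to 699.7 in the other ZT12 libraries. LOX2, a jasmonate synthesis enzyme, was at 77831 against 25070 to 31992. Several ZT12 results are given with and without this library, and those given once include it.

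NAC members were called between the lines by limma at shares near those of all genes. The 5 called were all higher in jaz4-1, as were most calls over all genes in the same comparisons. Differences are log2 fold changes of jaz4-1 over Col-0, from limma on log2(deposited value + 1), and a gene was called when its p adjusted over all 19614 tested genes was under 0.05. At ZT0 none of the 63 tested members was called, where 0.923% of all tested genes were, and 9 had an unadjusted p under 0.05 (13% of all genes). At ZT6 2 members were called (3.17%), both higher in jaz4-1, against 2.95% of all genes called in either direction and 2.19% called higher. An unadjusted p under 0.05 was reached by 10 members (20.4% of all genes). At ZT12 none was called (0.321% of all genes). With jaz4-1 replicate 3 included, 7 (11.1%) had an unadjusted p under 0.05 there (4.88% of all genes). At ZT18 none was called (0.138%), with 1 at an unadjusted p under 0.05 (3.03%). With edgeR on the recovered reads the counts at ZT0, ZT12 and ZT18 were also 0, and with DESeq2 they were 0, 2 and 0. The shares of all genes given here are those of limma. Shares for DESeq2 and edgeR are not given, so their counts cannot be set against the limma shares. Calls of lower levels came from other tests. NAC083 was lower at ZT6 by DESeq2 and in the authors' deposited table, and NAC050 was lower on average by DESeq2. On average over the 4 times 3 members (4.76%) were called, all higher in jaz4-1 (4.68% of all genes in either direction, 3.28% higher), and 9 had an unadjusted p under 0.05 (20.9%). For no member did the line difference depend on time by limma (0.194% of all genes), and 4 had an unadjusted p under 0.05 (6.82%).

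The number of tested members with a log2 fold change above 0 differed between the times. No member's line difference was called as dependent on time by limma. At ZT0 51 of 63 had a log2 fold change above 0, with a median of 0.25 against 0.0069 over all tested genes. The 2 groups did not overlap for 8 members at ZT0, all higher in jaz4-1, against 6.75% of all genes in that direction and 11.4% in either. They did not overlap for 15 members at ZT6 (26.8% of all genes), 7 at ZT12 (14.7%) and 6 at ZT18 (10.2%). Without both libraries in which few genes were detected, 43 of 63 were above 0 at ZT0 and the median was 0.17, and without jaz4-1 ZT0 replicate 1 these were 45 of 63 and 0.22. At ZT6 23 of 63 were above 0 (median -0.19 against -0.037 over all genes), and 22 of 63 without the same libraries. At ZT12 the median was 0.13, and 0.0068 without jaz4-1 replicate 3. At ZT18 36 of 63 were above 0 (median 0.02), and 42 of 63 (median 0.13) without Col-0 replicate 3. Values without jaz4-1 ZT18 replicate 2, also the highest for many members, are not given. The map of log2 fold changes by role shows these values for each gene.

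**Figure D1:**
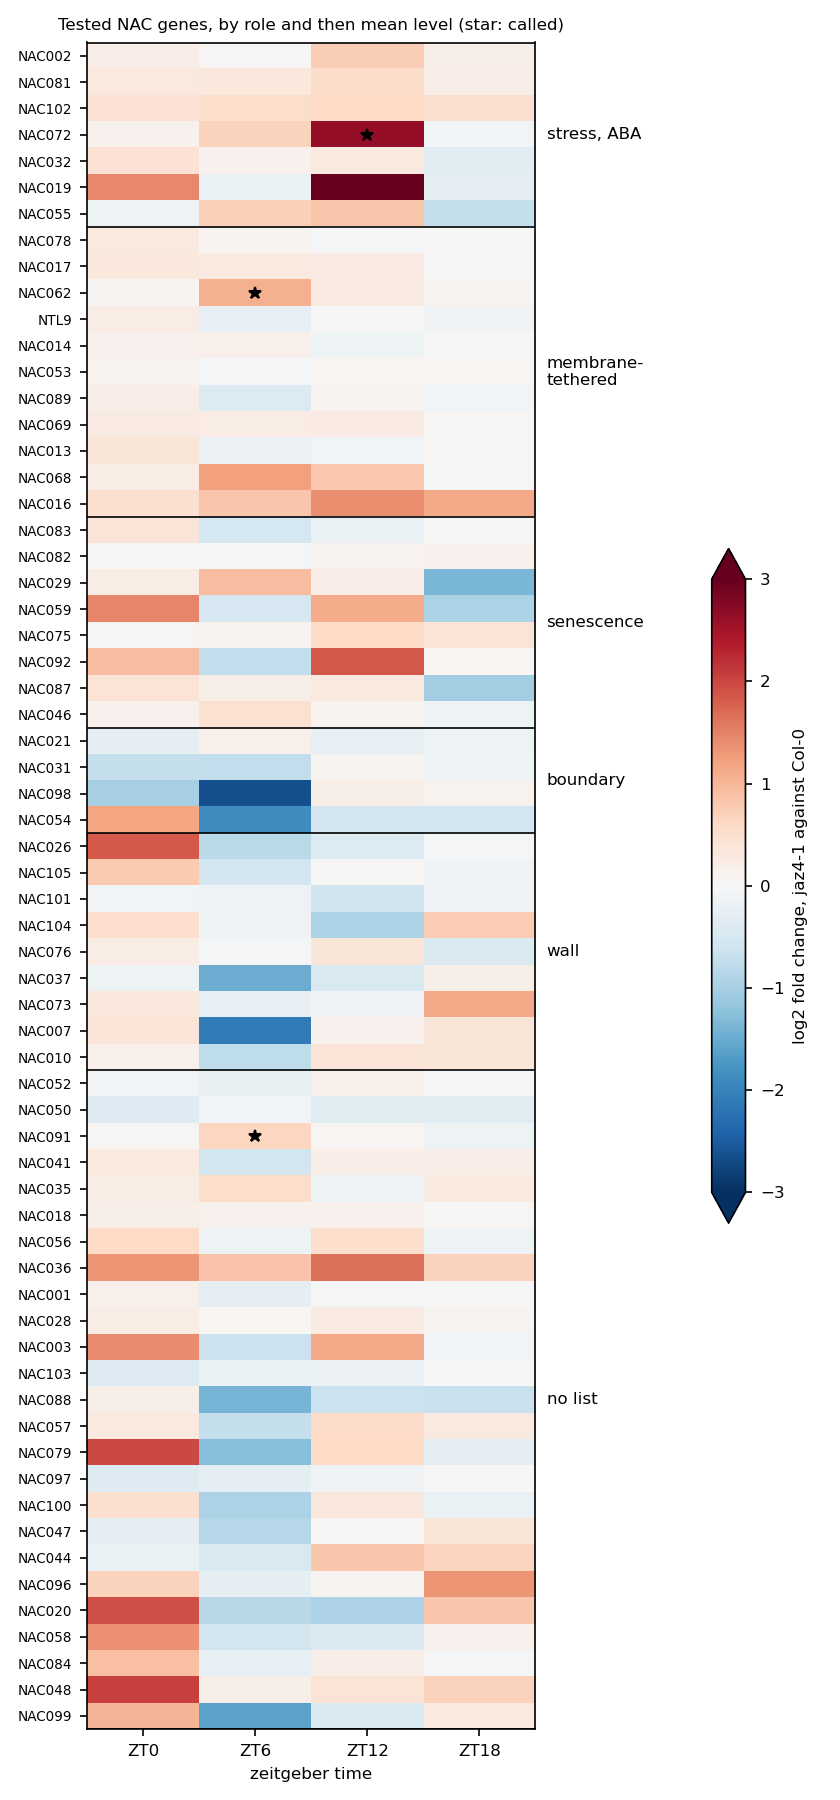
Log2 fold change of jaz4-1 against Col-0 (colour, limited to -3 to 3) for the 63 tested NAC members and NAC072 (rows, grouped by role and ordered by mean level within a group) at 4 zeitgeber times (columns). Stars mark calls by limma at a single time: NAC072 at ZT12, and NAC062 and NAC091 at ZT6.

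Among the stress and abscisic acid NACs, NAC072 rose in jaz4-1 at ZT12. NAC072 encodes an activator induced by drought and abscisic acid and lies at chr4:13707192-13709170 on the minus strand. At ZT12 Col-0 had 47.4, 63.6 and 58.0 normalised reads and jaz4-1 had 116, 319 and 1158. All 3 jaz4-1 libraries lay above all Col-0 libraries, and the jaz4-1 libraries differed widely among themselves. The log2 fold change was 2.63 ± 0.49 (SE, adjusted p = 0.0182 by limma), and without jaz4-1 replicate 3 it was 1.77 ± 0.33 (adjusted p = 0.0232). The call was lost without Col-0 replicate 1, 2 or 3 (adjusted p = 0.103, 0.0654 and 0.0562), without jaz4-1 replicate 2 (0.0714), with only the ZT12 libraries fitted (0.584) and with limma-voom (0.472). DESeq2 called NAC072 at ZT12 (3.24, adjusted p = 5.29e-07), and also without jaz4-1 replicate 3 (1.96, adjusted p = 3.81e-05). In the authors' deposited table its log2 fold change at ZT12 was 0.32, with an adjusted p of 0.227. Fold changes in that table can lie far nearer 0 than those of limma from the same values. For NAC019 at ZT12 it held 0.085, against 4.13 by limma, so the sizes are not comparable.

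At the other times the NAC072 groups overlapped. At ZT0 it was at 218, 233 and 202 in Col-0 and at 272, 176 and 281 in jaz4-1. At ZT6 the values were 263, 351 and 588 in Col-0 and 740, 586 and 531 in jaz4-1, and at ZT18 they were 97.3, 87.0 and 105 against 99.1, 91.8 and 82.7. The log2 fold changes were 0.13 at ZT0, 0.69 at ZT6 and -0.08 at ZT18, none of them called. The dependence of its line difference on time had an unadjusted p of 0.00337 and an adjusted p of 0.329 by limma.

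The 6 closest relatives of NAC072 were not called at ZT12 by limma with all libraries. NAC019, which acts with NAC072 and NAC055 downstream of the MYC factors in jasmonate responses, had 1.79, 0 and 0 normalised reads in Col-0 and 5.97, 8.92 and 215 in jaz4-1. NAC055 had 10.7, 0.949 and 15.9 against 2.98, 6.94 and 67.7. Both were near the detection limit in most libraries, and jaz4-1 replicate 3 was far above the others. Their log2 fold changes at ZT12 were 4.13 for NAC019 and 0.83 for NAC055, and without that library 2.56 and -0.37. DESeq2 called NAC019 at ZT12 (adjusted p = 0.00846), and not without that library (log2 fold change 3.57, adjusted p = 1). In Col-0 at ZT18 replicate 3 the same pair was also high, at 70.3 for NAC019 and 66.5 for NAC055, where the other 5 libraries of that time held at most 6.12 and 6.89.

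The ATAF branch was more abundant and showed the same library order. NAC002 (ATAF1), a stress-responsive factor, had 434, 384 and 383 in Col-0 and 441, 585 and 1126 in jaz4-1 at ZT12. NAC081 (ATAF2), induced by wounding, had 461, 496 and 390 against 473, 585 and 1038. NAC032 had 112, 83.5 and 146 against 58.7, 117 and 356. For NAC002 all jaz4-1 libraries lay above all Col-0 libraries, by a small margin in replicate 1, while for NAC081 and NAC032 the groups overlapped. The log2 fold changes at ZT12 were 0.73 for NAC002, 0.56 for NAC081 and 0.28 for NAC032, and without jaz4-1 replicate 3 they were 0.34, 0.23 and -0.41. NAC002 was called when jaz4-1 replicate 1 was left out (adjusted p = 0.0323 by limma). Over the 7 stress and abscisic acid NACs the median at ZT12 was 0.73, with 7 of 7 above 0 and 1 called, and without that library the median was 0.25. Over all tested genes the median was 0.0050.

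**Figure D2:**
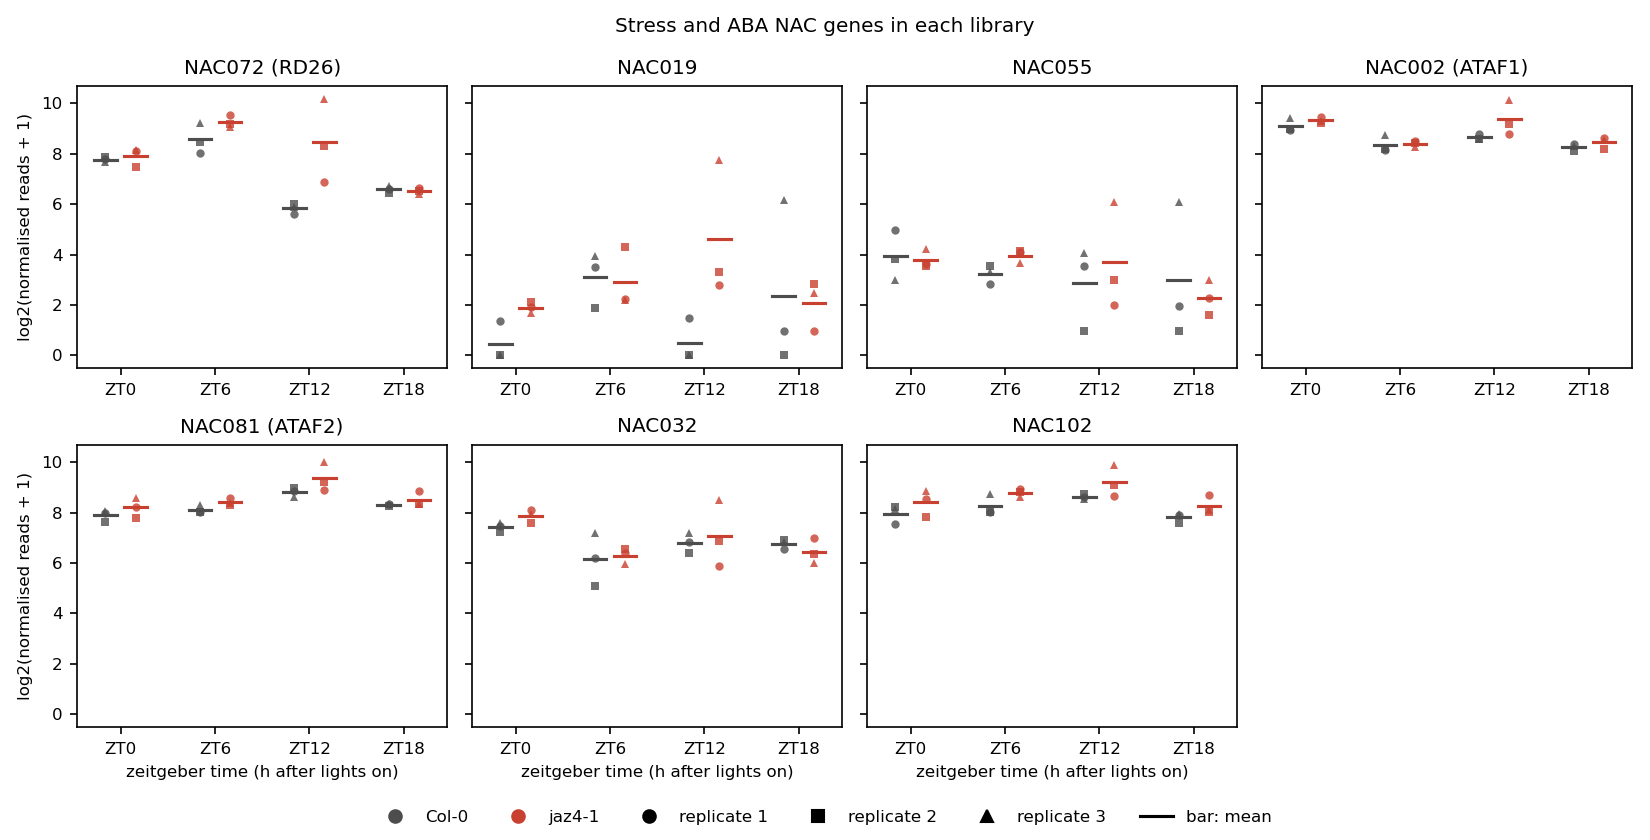
Level of the 7 stress and abscisic acid NAC genes as log2(normalised reads + 1) in each of the 24 libraries (points, shaped by replicate, 3 per line and time) with the group mean (bar) at 4 zeitgeber times. At ZT12 the highest point of each panel's 6 is jaz4-1 replicate 3, and NAC019 and NAC055 are also high in Col-0 replicate 3 at ZT18.

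NAC102, an ATAF relative reported in tolerance of low oxygen, rose in jaz4-1 on average over the 4 times. It was at 184, 299 and 279 in Col-0 and 373, 223 and 460 in jaz4-1 at ZT0, and at 259, 256 and 423 against 483, 452 and 390 at ZT6. The values were 393, 425 and 370 against 407, 546 and 945 at ZT12, and 237, 191 and 245 against 417, 257 and 277 at ZT18. The groups overlapped at ZT0, ZT6 and ZT12 and not at ZT18. The log2 fold change was between 0.44 and 0.59 at each time and 0.51 ± 0.14 on average (SE, adjusted p = 0.0439 by limma). This call was lost in 19 of 33 alternatives (adjusted p up to 0.0889), among them the fit without jaz4-1 ZT12 replicate 3 (0.0734). NAC102 (chr5:25526509-25528281, minus strand) overlaps its neighbour AT5G63780 on the other strand by 85 bases, and neither labels nor headers give the strand of the libraries, so reads from the overlap cannot be told apart. NAC002, NAC081, NAC078, NAC035 and NAC083 also overlap genes on the opposite strand.

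The membrane-tethered NACs were higher in jaz4-1 for NAC062 at ZT6 and for NAC017 on average. NAC062 (NTL6) is freed from membranes by cold and by stress of the endoplasmic reticulum and lies at chr3:18362443-18364959 on the minus strand. At ZT6 it had 271, 364 and 528 normalised reads in Col-0 and 941, 675 and 746 in jaz4-1, so that each jaz4-1 library lay above each Col-0 library. The log2 fold change was 1.06 ± 0.22 (SE, adjusted p = 0.0106 by limma). It was called by edgeR, DESeq2 and limma-voom as well, and in the authors' deposited table it was 0.88 with an adjusted p of 0.000598. The call was lost without Col-0 ZT6 replicate 1 (0.0970) or jaz4-1 ZT6 replicate 1 (0.0571).

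The NAC062 groups overlapped at the other times. It had 267, 310 and 268 in Col-0 and 295, 300 and 295 in jaz4-1 at ZT0, and 290, 346 and 471 against 323, 415 and 621 at ZT12. At ZT18 it had 397, 422 and 329 against 411, 357 and 434. The test of a dependence on time gave an unadjusted p of 0.0143 and an adjusted p of 0.543 by limma, so a difference between the times was not called. NAC062 changed over the day in jaz4-1 (range 1.29 on the log2 scale, adjusted p = 8.36e-05 by limma). In Col-0 the range was 0.40 (adjusted p = 0.437).

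NAC017, a factor of the endoplasmic reticulum membrane that carries signals from stressed mitochondria to the nucleus, rose by a small amount. It lies at chr1:12451405-12454542 on the plus strand. At ZT0 it had 606, 788 and 758 in Col-0 and 891, 949 and 821 in jaz4-1, and at ZT6 542, 655 and 587 against 718, 725 and 725. At ZT12 it had 768, 743 and 752 against 901, 855 and 927, and at ZT18 816, 760 and 775 against 795, 817 and 755. All jaz4-1 libraries lay above all Col-0 libraries at ZT0, ZT6 and ZT12, and the groups overlapped at ZT18. The log2 fold change on average was 0.21 ± 0.05 (SE, adjusted p = 0.0164 by limma), and it was called in 33 of 33 alternatives. Its 2 listed targets in mitochondrial signalling were not called, with average log2 fold changes of 0.13 for the alternative oxidase AOX1A and -0.15 for UPOX. NAC016, which ends 117 bases before NAC017 on the same strand, had a mean of 0.417 CPM and an average log2 fold change of 0.96, not called.

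Of the 13 membrane-tethered NACs 11 were tested. At ZT0 11 of 11 had a log2 fold change above 0 (median 0.22), and 0 were called. At ZT6 7 of 11 were above 0 (median 0.14) and NAC062 alone was called. NAC068 (NTM1), which restrains cell division, had 17.6, 18.6 and 17.2 in Col-0 and 61.5, 40.4 and 33 in jaz4-1 at ZT6. Its groups did not overlap, and its log2 fold change of 1.24 had an unadjusted p of 0.0115 and was not called.

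NAC091 and NAC036, in none of the role lists, were also higher in jaz4-1. NAC091 (TIP) was found as a partner of a viral coat protein and lies at chr5:8416375-8419076 on the minus strand. At ZT6 it had 304, 364 and 457 in Col-0 and 595, 617 and 517 in jaz4-1. The groups did not overlap, and the log2 fold change was 0.63 ± 0.16 (SE, adjusted p = 0.0309 by limma). At ZT0, ZT12 and ZT18 the log2 fold changes were 0.03, 0.06 and -0.15. The call at ZT6 was lost without both libraries with few detected genes (0.0985), with only the ZT6 libraries (0.0726), and without Col-0 ZT6 replicate 1 or 2 or jaz4-1 ZT6 replicate 1 or 2 (adjusted p up to 0.168). In the authors' deposited table NAC091 had a log2 fold change of 0.55 at ZT6 and an adjusted p of 0.0266. In jaz4-1 NAC091 changed over the day by 1.03 (adjusted p = 5.28e-05 by limma), and in Col-0 the range was 0.26 (0.477), while the test of a dependence of the line difference on time gave an adjusted p of 0.518.

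NAC036, whose overexpression dwarfs the plant, lies at chr2:7406911-7408393 on the plus strand. At ZT0 it had 94.0, 21.9 and 57.9 in Col-0 and 127, 105 and 147 in jaz4-1, and at ZT6 48.5, 78.0 and 98.2 against 242, 75.8 and 124. At ZT12 it had 43.8, 30.4 and 50.1 against 74.6, 75.4 and 388, and at ZT18 100.15, 77.6 and 51.1 against 128, 76.5 and 173. All jaz4-1 libraries lay above all Col-0 libraries at ZT0 and ZT12, and the groups overlapped at ZT6 and ZT18. The log2 fold change on average was 1.13 ± 0.28 (SE, adjusted p = 0.0238 by limma), and at single times it was between 0.69 and 1.66. The highest of these, at ZT12, was 0.87 without jaz4-1 replicate 3. DESeq2 called NAC036 at ZT12 (2.12, adjusted p = 0.0186), and not without that library (0.87, adjusted p = 1). Without jaz4-1 ZT12 replicate 3 it was 0.94 on average (0.0257). The call was lost without jaz4-1 ZT18 replicate 3 (0.0523) and with limma-voom (0.0542).

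**Figure D3:**
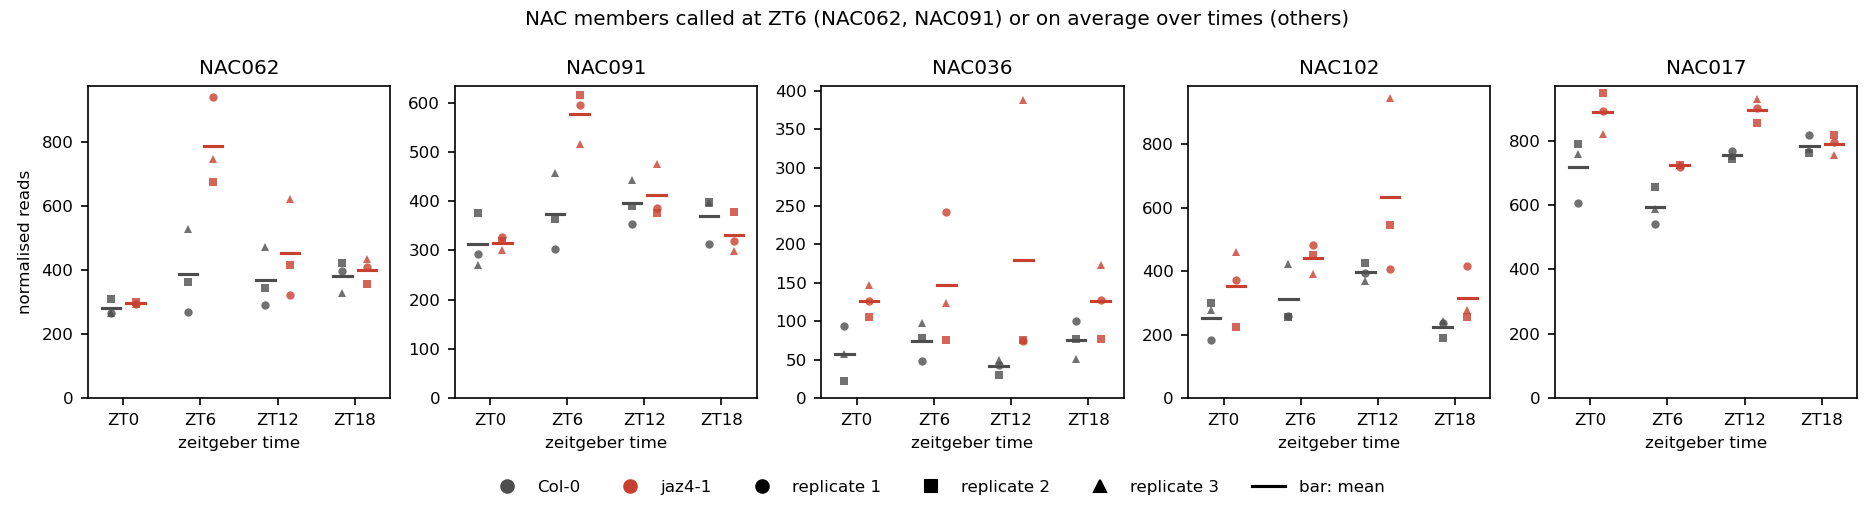
Normalised reads of the 5 NAC members called between the lines in each of the 24 libraries (points, shaped by replicate, 3 per line and time) with the group mean (bar) at 4 zeitgeber times. NAC062 and NAC091 separate at ZT6, and NAC017 separates at ZT0, ZT6 and ZT12.

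The 250 bases upstream of the annotated start of the 3 genes called at a single time are shown because they hold the letters of elements bound by bHLH and bZIP factors (the G-box CACGTG and its core ACGTG) or WRKY factors (TTGAC). Sequences are from RefSeq (TAIR10.1), 5′ to 3′ on the strand of the gene, and capitals mark matches on either strand. The windows are chr4:13709171-13709420, chr3:18364960-18365209 and chr5:8419077-8419326, all on the minus strand.
NAC072: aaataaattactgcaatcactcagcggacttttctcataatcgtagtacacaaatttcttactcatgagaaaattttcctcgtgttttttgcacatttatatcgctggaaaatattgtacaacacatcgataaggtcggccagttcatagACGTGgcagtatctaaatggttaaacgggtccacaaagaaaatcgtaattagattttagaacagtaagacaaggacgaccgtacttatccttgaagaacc
NAC062: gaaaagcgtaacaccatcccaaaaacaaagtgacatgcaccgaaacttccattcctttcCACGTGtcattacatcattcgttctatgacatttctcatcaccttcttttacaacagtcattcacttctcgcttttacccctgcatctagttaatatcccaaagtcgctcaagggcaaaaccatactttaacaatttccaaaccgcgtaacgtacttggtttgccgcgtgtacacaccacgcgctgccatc
NAC091: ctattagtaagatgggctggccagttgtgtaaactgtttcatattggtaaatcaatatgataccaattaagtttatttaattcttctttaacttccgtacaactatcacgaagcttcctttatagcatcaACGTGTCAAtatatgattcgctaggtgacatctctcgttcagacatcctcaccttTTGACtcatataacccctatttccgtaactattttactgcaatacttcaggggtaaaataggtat
NAC072 held 1 ACGTG, 100 bases before the start. NAC062 held 1 G-box, 191 bases before the start, which reads ACGTG on both strands. NAC091 held 1 ACGTG, 120 bases before the start, and 2 matches to TTGAC, the first of which overlaps the ACGTG and reads on the other strand. The windows of NAC102, NAC036 and NAC017 held none of these letters. Part of the NAC017 window lies within NAC016, which ends 117 bases before NAC017. Over 27443 such windows of all genes 6.49% held CACGTG, 22.9% held ACGTG and 44.9% held TTGAC on either strand. Among the 63 tested members these were 7 (11.1%), 21 (33.3%) and 22 (34.9%), and the evening element AAAATATCT was in 4 members (6.35%) against 2.36% of all windows.

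The senescence NACs were not called between the lines at any time or on average by limma. Of the 10 listed, 8 were tested, and 8 of 8 had a log2 fold change above 0 at ZT0 (median 0.31), 4 of 8 at ZT6, 7 of 8 at ZT12 and 4 of 8 at ZT18. NAC092 (ORE1), a central activator of leaf senescence, had 6.26, 5.70 and 0 in Col-0 and 5.97, 7.93 and 35.4 in jaz4-1 at ZT12, with jaz4-1 replicate 3 again the highest. Its log2 fold change there was 1.85, and 1.11 without that library. NAC083 (VNI2), a repressor linked to leaf longevity and vessel formation, was among the most abundant members. It had 1166, 1058 and 1020 at ZT6 in Col-0 and 857, 665 and 732 in jaz4-1. All jaz4-1 libraries lay below all Col-0 libraries there, and the log2 fold change was -0.53 (unadjusted p = 0.00298, adjusted p = 0.0702 by limma). DESeq2 called it lower at ZT6 (-0.51, adjusted p = 0.0480), and in the authors' deposited table its log2 fold change was -0.49 with an adjusted p of 0.0147. At ZT0 its log2 fold change was 0.39, and the test of a dependence on time gave an unadjusted p of 0.00407 and an adjusted p of 0.351.

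Members that act at organ boundaries and in vessel walls were mostly scarce, and most were below Col-0 at ZT6, though none was called. Of the boundary and meristem NACs 4 were tested, and 3 of 4 had a log2 fold change below 0 at ZT6 (median -1.31). The other, NAC021 (NAC1), was the most abundant of the 4, at a mean of 6.52 CPM. At ZT6 it had 154, 132 and 119 in Col-0 and 138, 173 and 142 in jaz4-1. Of the vessel and fibre wall NACs 9 were tested, and 9 of 9 had a log2 fold change below 0 at ZT6 (median -0.56 against -0.037 over all genes), while 7 of 9 were above 0 at ZT0 (median 0.31). NAC007 (VND4), a vessel regulator, had 18.6, 9.75 and 12.7 in Col-0 and 4.92, 0 and 5.35 in jaz4-1 at ZT6. NAC037 (VND1), of the same group, had 14.5, 25.7 and 24.7 against 8.61, 5.05 and 7.13. NAC098 (CUC2), which sets organ boundaries, had 21.7, 18.6 and 21.7 against 1.23, 0 and 17.8. For NAC007, NAC037 and NAC098 each jaz4-1 library lay below each Col-0 library, at levels of a few reads. The log2 fold changes were -2.09 for NAC007, -1.50 for NAC037 and -2.64 for NAC098 (adjusted p = 0.0641, 0.125 and 0.0758 by limma).

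Both zeros were in jaz4-1 ZT6 replicate 2, the library of that group with few detected genes. Without both such libraries the log2 fold changes were -1.22 for NAC007, -1.31 for NAC037 and -1.74 for NAC098, and 9 of 9 wall NACs were still below 0. Without jaz4-1 ZT6 replicate 3, NAC007 (adjusted p = 0.0282) and NAC098 (0.0055) were called. The summed level of the 4 root markers, nearly all PYK10, also differed at ZT6, at 179 to 260 CPM in Col-0 and 56.0 to 105 CPM in jaz4-1, while the 4 leaf markers summed to 53170 to 68320 CPM and 67150 to 75880 CPM. Of these root markers CASP1 stayed at or under 0.69 CPM in every library, IRT1 at or under 0.115 and COBL9 at or under 0.221. The part of tissue composition in these differences was not tested. The 3 tested secondary wall targets were not called, and 0 of 3 were above 0 at ZT6.

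Reported targets and upstream factors of the NAC genes were read in the same fits. Of 13 targets in senescence and chlorophyll breakdown none was called between the lines by limma, 4 had an unadjusted p under 0.05 at ZT0 (13% of all genes), and 12 of 13 were above 0 on average (median 0.21 against -0.0028 over all genes). NCED3, the enzyme that limits abscisic acid synthesis, had a log2 fold change of 1.17 at ZT12 (unadjusted p = 0.00907) and 0.48 without jaz4-1 replicate 3 (unadjusted p = 0.16), and AAO3, which acts at the last step, had 0.60 at ZT0 (unadjusted p = 0.0219). At ZT6 NCED3 had 159, 232 and 178 in Col-0 and 445, 282 and 306 in jaz4-1, groups that did not overlap. Its log2 fold change there was 0.84 (adjusted p = 0.247 by limma), and 0.73 with an adjusted p of 0.0108 in the authors' deposited table. Of 5 targets in salicylate and jasmonate metabolism none was called by limma, and 5 of 5 were above 0 at ZT12 (median 1.15), against 1 of 5 without jaz4-1 replicate 3 (median -0.12). SAGT1, a salicylate glucosyltransferase, had 165, 164 and 204 in Col-0 and 153, 347 and 1811 in jaz4-1 at ZT12, a log2 fold change of 1.37, and 0.38 without replicate 3. At ZT6 SAGT1 had 488, 411 and 745 against 850, 881 and 892, also without overlap, with a log2 fold change of 0.72 (adjusted p = 0.496 by limma), and 0.60 with an adjusted p of 0.0242 in the authors' deposited table. DESeq2 called SAGT1 and NCED3 at ZT12 (adjusted p = 0.0349 and 0.0386), neither of them without jaz4-1 replicate 3 (adjusted p = 1 for both), and neither at ZT6. On average over the times DESeq2 called 4 of these 18 targets, SAGT1, NCED3, AAO3 and NYC1, all higher in jaz4-1. On average limma, limma-voom and edgeR each called 0 of the 18. The share of all genes that DESeq2 called is not given here. These averages include jaz4-1 ZT12 replicate 3, and DESeq2 on average was not run without it. BSMT1, which methylates salicylate, had 0 in 5 of the 6 ZT12 libraries and 56.3 in jaz4-1 replicate 3. At ZT12 SAGT1 and BSMT1 were highest in the library in which the stress NACs were highest. Of 9 upstream factors, PIF5, which activates ORE1 in darkness, rose at ZT6 by 0.78 (adjusted p = 0.00643 by limma). MYC4, a jasmonate response factor, fell by 0.69 at ZT6 (adjusted p = 0.00641 by limma).

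Several NAC members changed over the day, among them NAC029, NAC041 and NAC002. Values here are reads scaled over all 24 libraries, since the deposited values were scaled within each time. In Col-0 16 of the 63 tested members changed with time (49.1% of all genes), and in jaz4-1 23 did (53.5%). The jaz4-1 count was 21 without its ZT12 replicate 3. With all libraries 11 members were called in both lines (41.6% of all genes), 5 in Col-0 alone (7.55%) and 12 in jaz4-1 alone (11.9%). The other 35 were called in neither, and for no member was the line difference called as dependent on time. Of the tested members 24 of 63 lay under 1 CPM, against 2148 of 19614 genes. Among the members under 1 CPM, 2 were called in Col-0 (15.2% of all genes at that level), of the 24 between 1 and 10 CPM 6 were called (38.8%), and of the 15 between 10 and 100 CPM 8 were called (60.0%). In jaz4-1 these were 2 (16%), 9 (42.8%) and 12 (65.2%). Among the 16 called in Col-0 the highest mean fell at ZT0 for 7, at ZT6 for 4, at ZT12 for 2 and at ZT18 for 3. Among the 11 called in both lines the time of the highest mean was the same for 9 and that of the lowest for 10.

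NAC029 (NAP), which drives leaf senescence through abscisic acid, had the widest range of the named day-course members. In Col-0 it was at 242 ± 9.70 (SD, n = 3) at ZT0, 43.4 ± 22.1 at ZT6, 1.3 ± 1.22 at ZT12 and 13.6 ± 2.96 at ZT18. In jaz4-1 it was at 293 ± 87.3, 76.4 ± 7.87, 1.44 ± 1.04 and 7.36 ± 8.44. The level was high at dawn and near the detection limit at dusk in both lines, with a range of 6.90 in Col-0 and 6.94 in jaz4-1 on the log2 scale (adjusted p = 4.25e-08 and 6.03e-09 by limma). Its relative NAC056, which acts in seed development, also had its highest mean at ZT0 (185 ± 49.9) and its lowest at ZT12 (42 ± 15.9) in Col-0, with a range of 2.16. NAC092 had a similar order in Col-0, from 39.1 ± 27.8 at ZT0 to 3.35 ± 2.91 at ZT12 (adjusted p = 0.0182), and in jaz4-1 its change was not called (0.0747).

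Other members had other phases. NAC041 was lowest at ZT6 (93.0 ± 10.2 in Col-0) and highest at ZT18 (528 ± 144), with a range of 2.47 in Col-0 and 3.21 in jaz4-1. NAC069, a membrane-tethered factor, was lowest at ZT0 (75.3 ± 4.92) and highest at ZT6 (194 ± 36.2) in Col-0. NAC002 was highest at ZT0 (654 ± 128) and lowest at ZT18 (287 ± 30.4) in Col-0, and in jaz4-1 its ZT12 mean of 606 ± 304 held the library that stood apart. These 3 members had their highest and lowest means at the same times in both lines.

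The remaining named members changed by less than 1 on the log2 scale in Col-0. NAC014, a membrane-tethered factor, was highest at ZT0 and lowest at ZT12 in both lines, with ranges of 0.70 and 0.96. NAC050, a partner of a histone demethylase, was lowest at ZT0 and highest at ZT18 in both lines, with ranges of 0.57 and 0.63. Its call in Col-0 (adjusted p = 0.0253 by limma) was kept in 19 alternatives and lost in 3 (adjusted p up to 0.114). NAC078, which acts with NAC053 when the proteasome is impaired, was the most abundant member, and was highest at ZT12 (1248 ± 22.1 in Col-0) and lowest at ZT18 (877 ± 7.41). The phase differed between the lines for NAC083 and NAC035. NAC083 was highest at ZT6 in Col-0 (1163 ± 83.4) and at ZT0 in jaz4-1 (1433 ± 468), and NAC035 (LOV1), which delays flowering, was highest at ZT18 in Col-0 (268 ± 29.7) and at ZT6 in jaz4-1 (347 ± 16). Neither difference in phase was called, since the dependence of the line difference on time had adjusted p of 0.351 and 0.771 by limma. At ZT6 DESeq2 called NAC035 higher in jaz4-1 (0.54, adjusted p = 0.0298), which limma did not. Its normalised reads there were 217, 263 and 187 in Col-0 and 326, 303 and 329 in jaz4-1, without overlap.

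**Figure D4:**
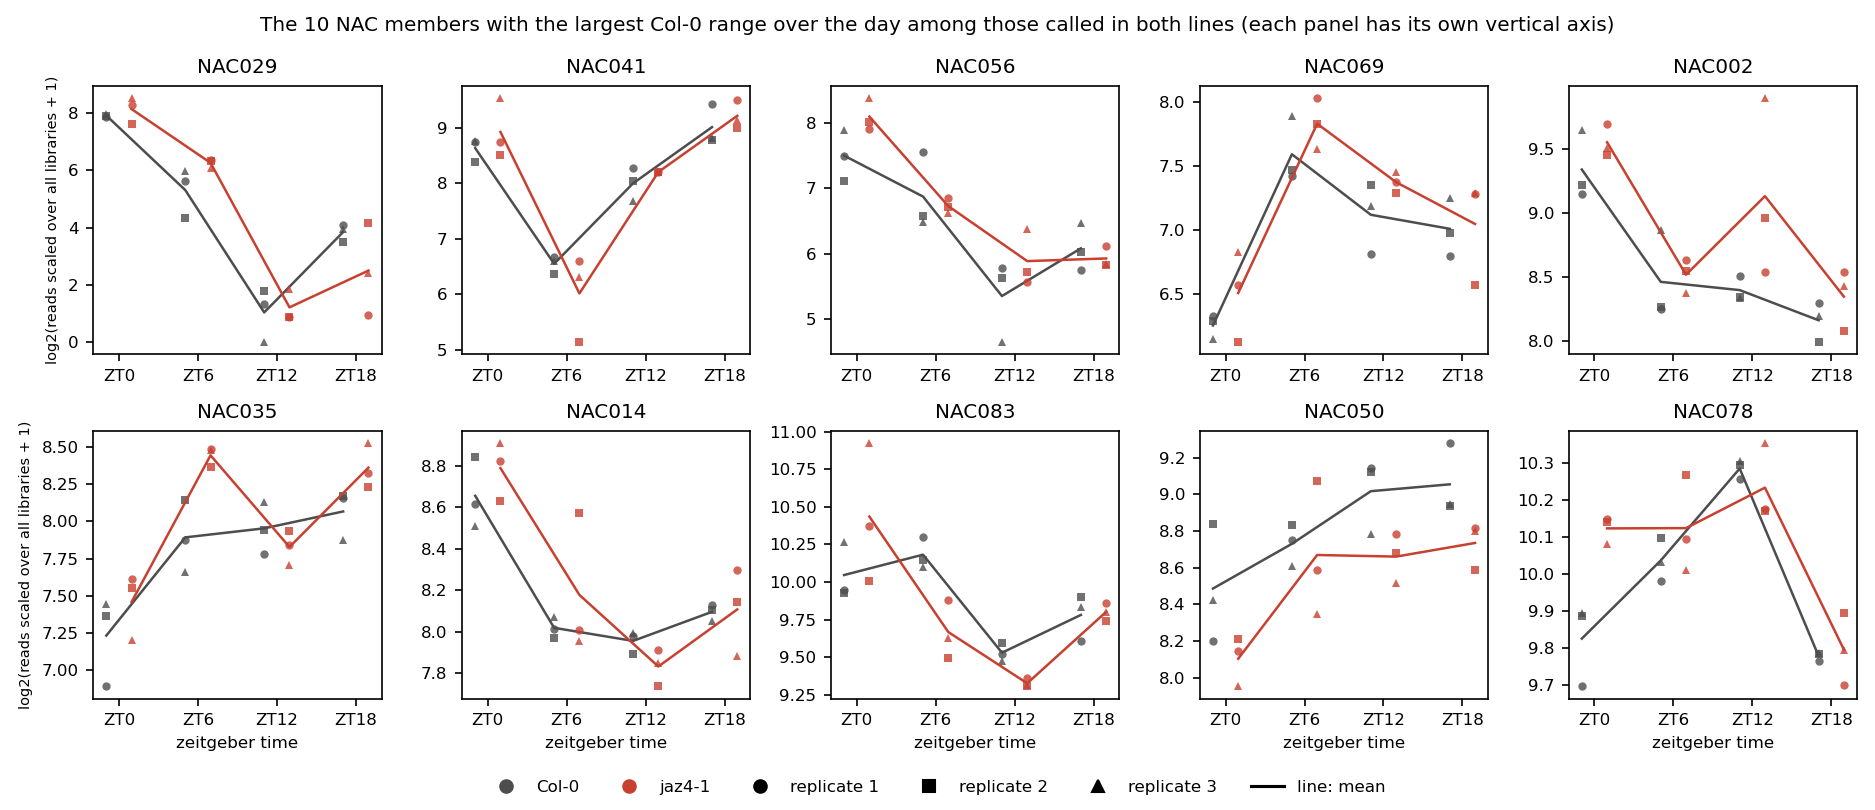
Level of 10 NAC members as log2(reads scaled over all libraries + 1) in each library (points, shaped by replicate, 3 per line and time) with lines through the group means at 4 zeitgeber times; each panel has its own vertical axis. NAC029, NAC056 and NAC014 are highest at ZT0 in both lines, and NAC041 is lowest at ZT6 in both.

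Several NAC genes are neighbours in the genome, and their line differences are given side by side. There were 10 pairs of adjacent members, formed by 18 genes, of which 7 pairs had both genes tested. NAC050, NAC052 and NAC053 follow each other on the plus strand of chromosome 3 with gaps of 129 and 14 bases. Their average log2 fold changes were -0.29, -0.04 and 0.04, none of them called by limma. NAC050 was called lower on average by DESeq2 (-0.28, adjusted p = 0.0357) and by limma with a replicate block (-0.29, adjusted p = 0.0387). NAC018 and NAC019 had log2 fold changes of 0.13 and 4.13 at ZT12, and NAC055 and NAC056 had 0.83 and 0.53, none of them called by limma.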

How the data were processed

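RNA of whole rosettes was sequenced in 24 libraries, 3 for each of 8 groups of line and time. Per the submitters' processing notes, reads were aligned with HISAT2 to TAIR10 and counted with featureCounts, and the versions of both are not given in the sources used. The headers call the values RPKM, but tested on the file each deposited value is a whole number of reads divided by 1 size factor per library, set within each time, so the deposited unit is treated as a normalised signal. Whole reads were recovered for 100% of values within 0.001. The deposited table also holds the authors' log2 fold changes and adjusted p-values, named where used. Some of those fold changes lay far nearer 0 than those of limma, so their sizes are not comparable. Deposited factors differed from factors over all libraries by -16.3% to 17.3%, so changes over time used reads rescaled over all 24 libraries.

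Line differences were tested on log2(deposited value + 1), and changes over time on log2(rescaled reads + 1), with limma-trend (limma 3.58.1, R 4.3.3), robust empirical Bayes and 1 coefficient per group (16 residual degrees of freedom). The pseudocount understates fold changes of low genes. Genes passed filterByExpr (minimum count 10, minimum total 15), which left 19614. The p-values were adjusted by Benjamini-Hochberg over all of these and called under 0.05. The fits were checked on simulated data. edgeR 4.0.16, DESeq2 1.42.0 and limma-voom on recovered reads were alternatives. No pair of libraries of the same line and time agreed within sampling noise, and pairs across groups were not checked.

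Named genes were NAC072 and its 6 closest relatives, every member called between the lines, of the members called over the day in both lines the 10 of at least 1 CPM with the widest range in Col-0, and up to 3 called genes of each other list. NAC068, NAC083, NAC092, the 3 scarce members low at ZT6, neighbouring genes and the uncalled targets with their values were chosen after values were seen. The same holds for NAC021. The members and the role lists were chosen with earlier results of these data known. Motifs were searched in 250 bases upstream of genes in RefSeq's TAIR10.1. Protein sequences were not used here.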

Additional observations from a re-analysis of the deposited data

How the results depend on the processing

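Of 417 alternative values for the 18 genes whose calls are named, 379 kept their side of the threshold, 38 lost the call and 0 changed sign. For 10 of these genes the value is a range over the day, which cannot be negative. A change of sign was therefore possible only for the line differences. Leaving out 1 library at a time gave counts of called members of 0 to 1 at ZT0, 0 to 4 at ZT6, 0 to 1 at ZT12 and 1 to 6 on average (lowest without jaz4-1 ZT18 replicate 3, highest without jaz4-1 ZT12 replicate 1). The ZT6 count was 0 without Col-0 or jaz4-1 replicate 1 of that time and 4 without jaz4-1 replicate 3, and the single call at ZT0 was NAC083, without jaz4-1 replicate 2. At ZT6 the count was 1 without both libraries with few detected genes, 1 with only that time fitted and 4 with DESeq2. At ZT12 DESeq2 called 2 members, NAC019 and NAC036, and without jaz4-1 replicate 3 called 0. Members taken from the table's family column gave 1 (NAC072). The last 2 alternatives were chosen after seeing the data. The shares of all genes called by limma-voom and DESeq2 are not given. On average limma-voom called 1 and DESeq2 6. The cause was not tested. Counts at ZT18 and of dependence on time were 0 under all alternatives run. Counts over time ranged from 13 to 21 in Col-0 and from 19 to 28 in jaz4-1.

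Same-numbered libraries of the lines correlated at -0.0997 to 0.329 in their deviations (median 0.126, 7 of 12 pairs over 0.1). Differently numbered libraries of the same time correlated at -0.424 to 0.368. Most of the same-numbered pairs were above 0 and most of the differently numbered pairs below 0. Deviations were taken from the mean of each group of 3 libraries, which ties these signs together. The second is thus not a separate observation. The labels state no pairing, and the main fits assumed none. Whether same-numbered libraries share a batch was not tested. A replicate block gave 5 called members on average in place of 3, adding NAC050 and NAC062. With 3 libraries a group, members below 1 CPM rest on a few reads a library.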

Other observations

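NAC genes outside the wording used to choose members, but placed in the same family by the deposited table, numbered 10. They include NAC072, the root cap factors FEZ and SMB and the senescence repressor JUB1. SOG1, which switches on the response to DNA damage, was at a mean of 12.4 CPM and in 24 of 24 libraries. Its log2 fold changes in jaz4-1 were 0.21 at ZT0, 0.07 at ZT6, -0.12 at ZT12 and 0.18 at ZT18, none called by limma. FEZ and SMB, factors of the root cap, had reads in 2 and 1 of the 24 libraries.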
